A study of Danio rerio with 6 samples.

Results

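The genes of the photoreceptor disc rim were examined in larval zebrafish eyes. They were chosen by name, as every gene of the deposited table whose symbol begins with rom1 or prph2. The rule gave 5 of 14781 genes, rom1a, rom1b, prph2a, prph2b and prph2l, and all 5 passed the filter on low values. The study compared eyes of larvae homozygous for the stl888 allele of samd7 (samd7-/-) with eyes of wild type (WT) larvae, all aged 5 days post fertilization and all offspring of an intercross of heterozygotes. There were 3 larvae of each genotype, and the eyes of 1 larva gave 1 library. The mutation is carried by every cell of the animal, and whole eyes were sequenced, so fewer photoreceptors of a type and less RNA per photoreceptor cannot be told apart.

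Rods and cones hold their visual pigments in an outer segment, a stack of flattened membrane discs. The sharply bent edge of each disc, its rim, is built from peripherin-2 and ROM1, related tetraspanin membrane proteins that join into larger complexes. In mammals peripherin-2 is required to form discs at all, and ROM1 is its partner protein. Zebrafish carry a pair of copies of each gene, named a and b, and the table also holds prph2l, a peripherin-2-like gene that RefSeq lists as prph2lb. In RefSeq's gene table (assembly GRCz12tu) the 5 genes lie on 5 different chromosomes, and none shares the chromosome of samd7.

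Libraries held 23185755 to 26672265 reads assigned to genes. samd7 itself, a Polycomb group gene expressed in photoreceptors, had 4691, 4070 and 4479 normalized counts in samd7-/- eyes and 1813, 1587 and 1931 in WT eyes (log2 fold change 1.31, limma adjusted p = 0.00491). What the allele does to the transcript is not stated in the labels, so this gain is no check of the genotype. Opsin and crystallin genes, which define eye tissue, were abundant in every library: the summed marker genes of cones took 11.9 to 13.6% of normalized counts in samd7-/- eyes and 8.31 to 12.0% in WT eyes, and those of the lens 12.4 to 17.1% in samd7-/- eyes and 15.0 to 23.2% in WT eyes. Of 11959 genes tested, 31 fell and 5 rose in samd7-/- eyes at an adjusted p under 0.05 (0.259% and 0.0418%). DESeq2 on recovered reads called 0.498% of genes lower and 0.181% higher, and edgeR 0.251% lower and 0.0335% higher.

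Transcripts of both rom1 copies were fewer in the mutant eyes than in WT eyes. rom1a had 698, 324 and 612 normalized counts in samd7-/- eyes, against 3256, 3149 and 2702 in WT eyes. Every mutant larva lay far below every WT larva, and the mutant mean was 17.9% of the WT mean. rom1a averaged 545 ± 196 in samd7-/- eyes and 3036 ± 294 in WT eyes (SD, n = 3 each), and fell by 2.55 on the log2(value + 1) scale (standard error, SE, 0.26, 95% interval −3.15 to −1.94, limma adjusted p = 0.00956).

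The second copy followed the first. rom1b had 2275, 989 and 2164 normalized counts in samd7-/- eyes, against 13217, 10360 and 10576 in WT eyes. The genotypes again did not overlap, and the mutant mean was 15.9% of the WT mean. rom1b averaged 1809 ± 713 in samd7-/- eyes and 11384 ± 1591 in WT eyes (SD, n = 3 each), and fell by 2.74 on the log2 scale (SE 0.30, 95% interval −3.42 to −2.06, limma adjusted p = 0.0102). Thus 2 of the 5 genes fell, where 0.259% of all genes tested were called lower in samd7-/- eyes and 6.39% had mutant values wholly below the WT values. Among the 11959 genes, rom1b had the fall in position 11 by size and rom1a that in position 17.

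The fewest reads behind a value were 320 for rom1a and 978 for rom1b, both in samd7-/- 2. The copies are related in sequence, and how reads that fit both were counted is not known here. If such reads were left out, they are missing from the sum of the copies too. That sum was 2973, 1312 and 2776 in samd7-/- eyes and 16473, 13510 and 13277 in WT eyes. It was 0.163 times as high in the mutants (exact permutation p = 0.1, two-sided, the smallest that 3 larvae against 3 can give). Both calls were lost with any WT library left out, at limma adjusted p = 0.0855 and 0.0962 for rom1a and rom1b without WT 1, 0.0534 and 0.0534 without WT 2, and 0.0645 and 0.0771 without WT 3. The log2 fold changes moved little, between −2.76 and −2.21 for rom1a and between −2.95 and −2.35 for rom1b with any 1 of the 6 libraries left out.

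**Figure D1:**
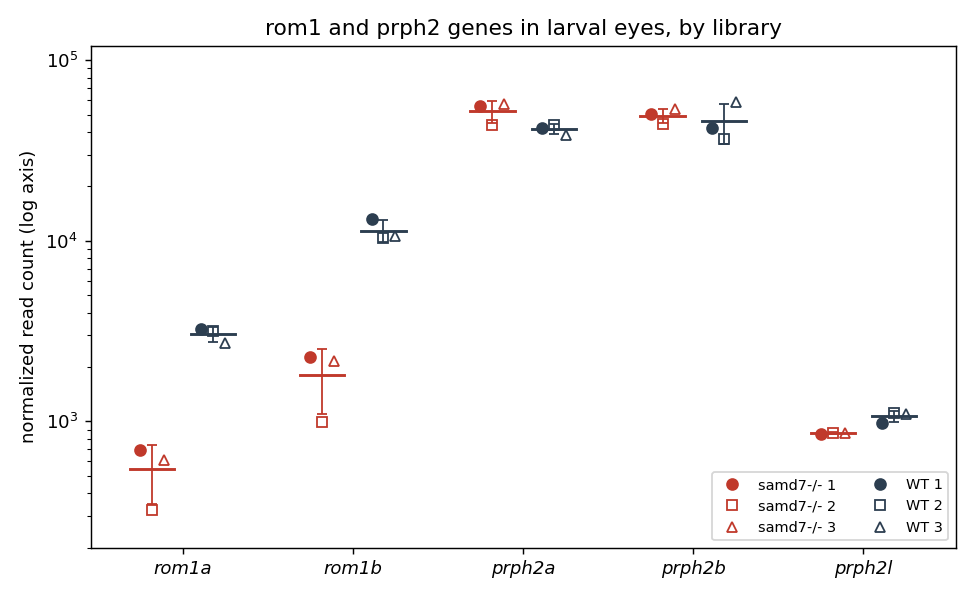
Normalized read counts (log axis, not divided by transcript length) of the 5 genes in each library, samd7-/- left of WT for each gene, with 1 symbol per larva, the mean as a bar and the SD as whiskers. For rom1a and rom1b the mutant larvae lie below all WT larvae, with samd7-/- 2 lowest, while for prph2a and prph2b the genotypes overlap.

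The peripherin-2 copies did not pass the test. prph2b had 50118, 44269 and 53380 normalized counts in samd7-/- eyes, against 42288, 36475 and 58664 in WT eyes. The mutant values lay inside the WT range, of which WT 3 was the top and WT 2 the bottom. prph2b averaged 49256 ± 4616 in samd7-/- eyes and 45809 ± 11505 in WT eyes (SD, n = 3 each), a log2 fold change of 0.13 (SE 0.19, limma adjusted p = 0.915). Its 95% interval, −0.30 to 0.56, corresponds to a mutant level between 0.811 and 1.48 times that of WT.

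prph2a had 56035, 43666 and 57076 normalized counts in samd7-/- eyes, against 42121, 43843 and 38615 in WT eyes. Here samd7-/- 1 and samd7-/- 3 lay above all WT larvae and samd7-/- 2 lay among them. prph2a averaged 52259 ± 7460 in samd7-/- eyes and 41527 ± 2664 in WT eyes (SD, n = 3 each), with a log2 fold change of 0.32 (SE 0.15, 95% interval −0.01 to 0.66, unadjusted p = 0.0573 and adjusted p = 0.781 with limma). The unadjusted p was 0.0318 with DESeq2 and 0.0452 with edgeR, and the adjusted p was 0.718 with DESeq2 and 0.774 with edgeR. The copies prph2a and prph2b summed to 106152, 87935 and 110456 in samd7-/- eyes and 84409, 80319 and 97279 in WT eyes, overlapping ranges (exact permutation p = 0.2, two-sided). Under quantile normalization the log2 fold changes of prph2a and prph2b were 0.62 and 0.42 (limma adjusted p = 0.601 and 0.792). Without WT 2 that of prph2b was −0.020, and without WT 3 it was 0.32.

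prph2l was lower in each mutant larva than in each WT larva, by a small margin that did not pass the test. It had 849, 867 and 866 normalized counts in samd7-/- eyes, against 984, 1115 and 1099 in WT eyes. The mutant larvae differed by a factor of 1.02 from lowest to highest and the WT larvae by 1.13. Its log2 fold change was −0.31 (SE 0.11, 95% interval −0.57 to −0.05, unadjusted p = 0.0262 and adjusted p = 0.71 with limma). Of all genes tested, 13.1% had genotypes that did not overlap and 6.33% had an unadjusted p under 0.05, so values like those of prph2l were common. In 1 direction, 6.39% of genes lay wholly lower in samd7-/- eyes and 6.66% wholly higher.

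**Figure D2:**
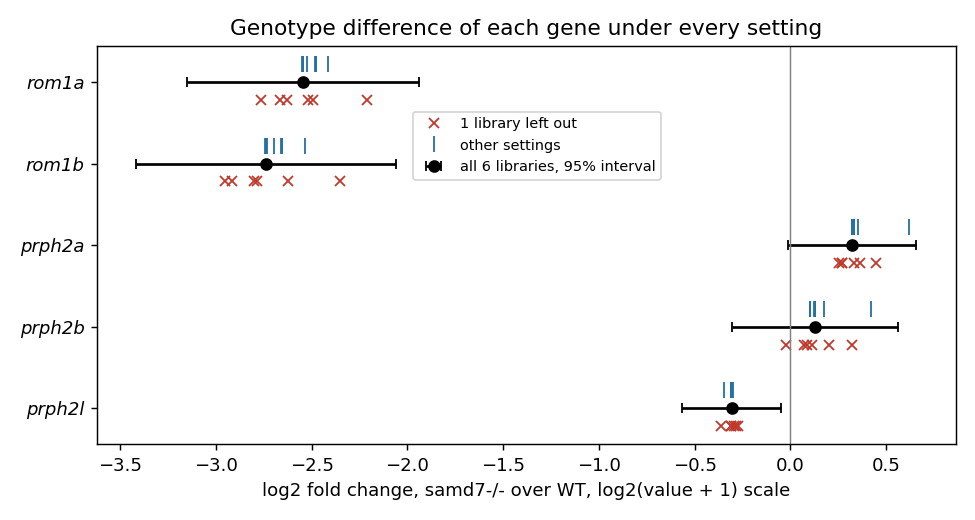
Log2 fold change (samd7-/- over WT, log2(value + 1) scale) of each gene, as the limma estimate with its 95% interval (black), the estimates with 1 library left out (crosses) and those under the other settings (bars). rom1a and rom1b stay at −2.21 or below in every setting shown, and the 3 prph2 genes lie between −0.36 and 0.62.

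Ratios of rom1 to prph2 counts were therefore taken within each library. A ratio of 2 genes in 1 library does not depend on how libraries were scaled to each other, and was compared between genotypes only, since counts were not divided by transcript length. Per 1000 counts of prph2a and prph2b together there were 28.0, 14.9 and 25.1 counts of rom1a and rom1b in samd7-/- eyes, against 195, 168 and 136 in WT eyes. The mutant larvae all lay below the WT larvae, and the log2 difference was −2.91, a ratio 0.133 times that of WT. Per 1000 counts of prph2b, rom1a had 13.9, 7.31 and 11.5 counts in samd7-/- eyes, against 77.0, 86.3 and 46.1 in WT eyes. For rom1b the same ratio was 45.4, 22.3 and 40.5 in samd7-/- eyes, against 313, 284 and 180 in WT eyes. These 3 ratios each gave an exact permutation p of 0.1, two-sided, the smallest possible. After Benjamini-Hochberg adjustment over the 15 ratios compared, that p was 0.167. The ratios follow from the fold changes of the rom1 and prph2 genes given above. Whether rom1 and prph2 transcripts came from the same cells was not tested.

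Expressed as shares of the normalized counts of rom1a, rom1b and prph2b, rom1a took 1.04 ± 0.306% in samd7-/- eyes and 5.20 ± 1.31% in WT eyes, and rom1b 3.44 ± 1.12% in samd7-/- eyes and 19.3 ± 4.09% in WT eyes (SD, n = 3 each). prph2b made up the remaining 95.5 ± 1.42% in samd7-/- eyes and 75.5 ± 5.26% in WT eyes, with genotypes that did not overlap for any of the 3 shares (each with a two-sided exact permutation p of 0.1). The shares add to a fixed total, so a smaller share of 1 gene raises the others. They also depend on the genes pooled. Of the counts of all 5 genes, prph2b took 47.2 ± 1.81% in samd7-/- eyes and 44.2 ± 7.42% in WT eyes, which overlap (exact permutation p = 0.5, two-sided). In that pool prph2a took 49.8 ± 1.26% in samd7-/- eyes and 40.7 ± 5.82% in WT eyes, without overlap (exact permutation p = 0.1, two-sided). The summed count of all 5 genes was 109974, 90114 and 114099 in samd7-/- eyes and 101866, 94944 and 111655 in WT eyes, with overlapping ranges (exact permutation p = 0.9, two-sided).

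Whether the mixture of the rom1 copies differed could not be decided, since 3 larvae against 3 cannot give a p under 0.1. Per 1000 rom1b counts there were 307, 327 and 283 rom1a counts in samd7-/- eyes, against 246, 304 and 255 in WT eyes. These ranges overlap (log2 difference 0.19, exact permutation p = 0.2, two-sided). With any 1 library left out the log2 difference was 0.13 to 0.28. Per 1000 prph2b counts there were 1118, 986 and 1069 prph2a counts in samd7-/- eyes and 996, 1202 and 658 in WT eyes (log2 difference 0.19, exact permutation p = 0.8, two-sided). WT 3 had the lowest of these 6 values, and without it the difference was −0.051.

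Relative to rhodopsin the rom1 genes differed much less between the genotypes. rho, the rod visual pigment, had 84016, 35975 and 81375 normalized counts in samd7-/- eyes and 349146, 291116 and 256165 in WT eyes (log2 fold change −2.24, limma adjusted p = 0.0362). Per 1000 rho counts, rom1a had 8.31, 8.99 and 7.52 counts in samd7-/- eyes, against 9.33, 10.8 and 10.5 in WT eyes. The genotypes did not overlap, and the log2 difference was −0.30. For rom1b the counts per 1000 rho were 27.1, 27.5 and 26.6 in samd7-/- eyes, against 37.9, 35.6 and 41.3 in WT eyes, a log2 difference of −0.50. The mutant larvae were close to each other in this ratio although their rho counts differed, and all lay below WT. Both differences had an exact permutation p of 0.1, two-sided, the smallest possible, and 0.167 after adjustment over the 15 ratios.

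The rho call held only without samd7-/- 2 among the fits with 1 library left out (limma adjusted p = 0.0151, and 0.0699 to 0.185 without any other). Other rod genes gave other offsets. Against gnat1, the α subunit of rod transducin, rom1a stood at 102, 122 and 92.1 per 1000 in samd7-/- eyes and at 117, 124 and 124 in WT eyes, which overlap (log2 difference −0.22, exact permutation p = 0.2, two-sided). rom1b stood at 333, 372 and 325 per 1000 gnat1 counts in samd7-/- eyes and at 476, 407 and 486 in WT eyes, which do not overlap (log2 difference −0.41, exact permutation p = 0.1, two-sided). nr2e3, a transcription factor of rods, changed less than the rom1 genes, with 1850, 1349 and 1988 normalized counts in samd7-/- eyes and 4857, 4833 and 4999 in WT eyes (log2 fold change −1.52, limma adjusted p = 0.00789, a call lost without any 1 WT library at 0.0534 to 0.0645). Relative to it both rom1 genes were lower in samd7-/- eyes, with log2 differences of −1.03 for rom1a and −1.22 for rom1b and no overlap (exact permutation p = 0.1 for each, two-sided).

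**Figure D3:**
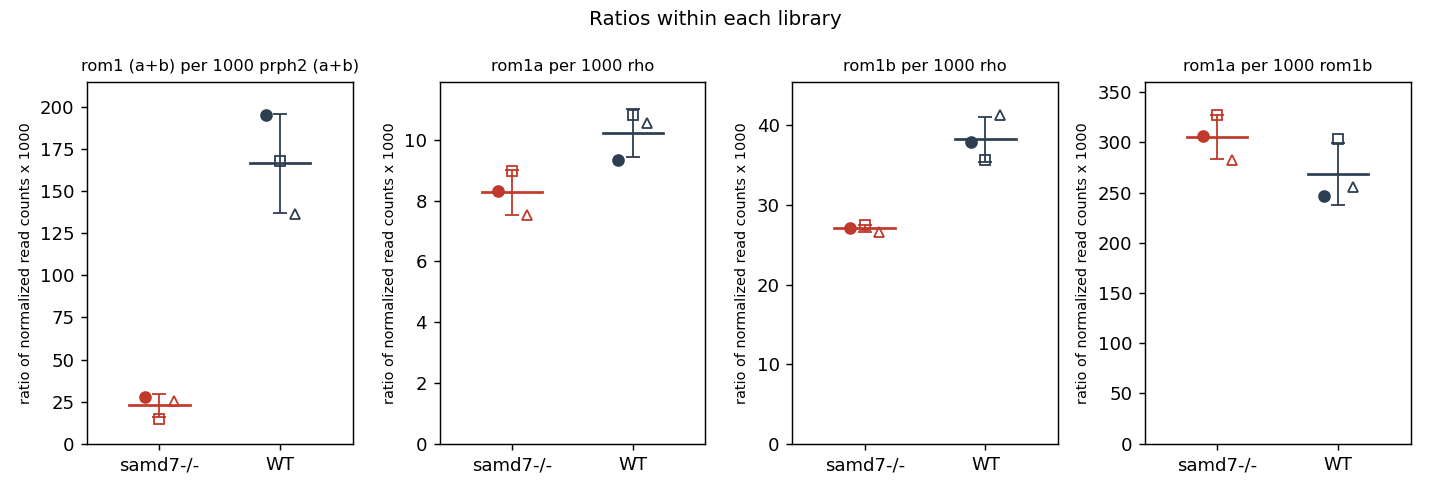
Ratios of normalized read counts within each library, times 1000, with samd7-/- left of WT, 1 symbol per larva, the mean as a line and the SD as whiskers; each axis starts at 0. The rom1 to prph2 ratio is 14.9 to 28.0 in samd7-/- eyes and 136 to 195 in WT eyes, whereas rom1a and rom1b per 1000 rho differ far less and rom1a per 1000 rom1b overlaps.

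The ratio of prph2b to a cone gene overlapped between the genotypes, and its ratio to a rod gene did not. gnat2, the α subunit of cone transducin, had 133372, 104839 and 126766 normalized counts in samd7-/- eyes and 111508, 101463 and 93639 in WT eyes (log2 fold change 0.25, limma adjusted p = 0.82). Per gnat2 count there were 0.376, 0.422 and 0.421 prph2b counts in samd7-/- eyes, against 0.379, 0.359 and 0.626 in WT eyes (log2 difference −0.12, exact permutation p = 0.9, two-sided, and a difference of 0.14 without WT 3). For prph2a these were 0.420, 0.417 and 0.450 in samd7-/- eyes and 0.378, 0.432 and 0.412 in WT eyes (log2 difference 0.08, exact permutation p = 0.4, two-sided). Per rho count there were 0.597, 1.23 and 0.656 prph2b counts in samd7-/- eyes, against 0.121, 0.125 and 0.229 in WT eyes. That ratio was 5.17 times as high in the mutants, with no overlap (exact permutation p = 0.1, two-sided, the smallest possible). Both results follow from the fold changes of rho, gnat2 and prph2b given above. They do not show in which photoreceptors prph2b is expressed.

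The mutant larvae differed among themselves more in rom1 than in prph2 transcripts. In samd7-/- eyes the highest larva exceeded the lowest by a factor of 2.16 for rom1a and 2.3 for rom1b, against 1.21 and 1.28 in WT eyes. For prph2b the factors were 1.21 in samd7-/- eyes and 1.61 in WT eyes. The low larva was samd7-/- 2 for both rom1 genes, prph2a and prph2b. It was also the lowest mutant library for 13 of 16 tested genes of a rod list without rom1 and for 19 of 23 shared cone genes. Of all genes tested, it was lowest for 35.2%. In the same library the 8 pigment epithelium markers summed to 212441, against 89476 and 57816 in samd7-/- 1 and samd7-/- 3. In WT 1, WT 2 and WT 3 these markers summed to 147457, 79086 and 197477. Their part in the low rom1 values was not tested. With samd7-/- 2 left out, the log2 fold changes were −2.21 for rom1a and −2.35 for rom1b (limma adjusted p = 0.00125 and 0.00113).

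Genes were ranked by the likeness of their profile over the 6 libraries, as the root mean square (RMS) difference of log2 values after each gene was centred on its own mean, among 9402 other genes. Closest to rom1b was sagb, a rod arrestin, with 2397, 1085 and 2424 normalized counts in samd7-/- eyes and 14928, 11587 and 11506 in WT eyes. Their RMS difference was 0.0338 log2 units. Next came rom1a at 0.147, rhol, a rhodopsin-like gene, at 0.163, and saga, the other rod arrestin, at 0.171. For rom1a the 4 closest were rom1b at 0.147, gnat1 at 0.162, sagb at 0.163 and pdca, a phosducin gene, at 0.179. prph2b was in position 6329 of the list for rom1a and prph2a in position 7595. The 4 closest to prph2b were fam3c, b4galt4, zfand5b and ppp3cca, at RMS differences of 0.0773 to 0.0852, none of them among the photoreceptor genes listed here. These ranks describe 6 libraries and carry no test.

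**Figure D4:**
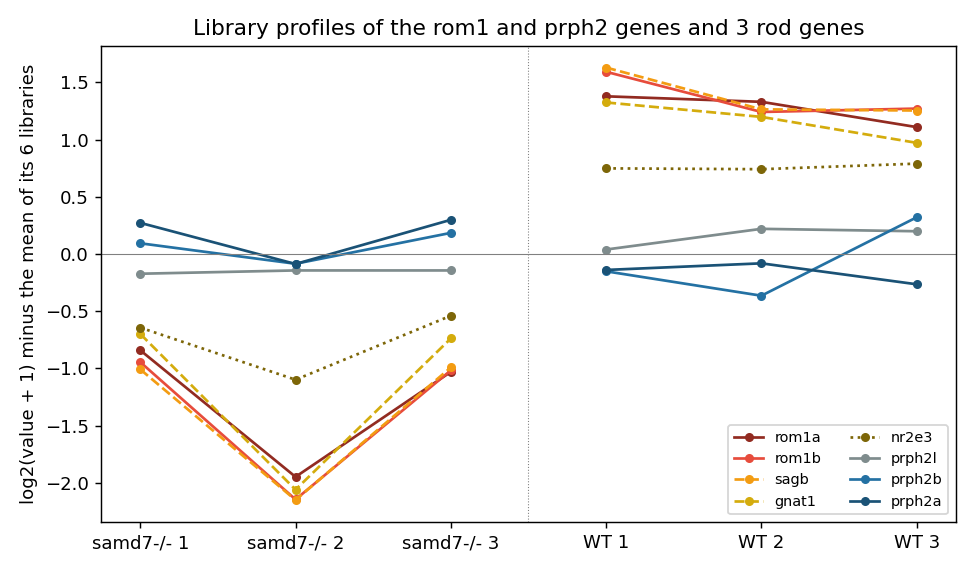
Log2(value + 1) of each gene minus its mean over the 6 libraries, samd7-/- libraries left of WT libraries, with lines joining the values of 1 gene within a genotype; replicates have no order. rom1a, rom1b, sagb and gnat1 run together and are lowest in samd7-/- 2, nr2e3 differs less between genotypes, and the prph2 genes stay near 0.

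Most tested genes of the rod list, which was drawn up by name without rom1, fell in the mutant eyes. In which photoreceptors rom1 is expressed was not tested. Of 16 tested, 10 fell, 0 rose and 6 did not pass with limma. At an unadjusted p under 0.05 limma had 14 lower and 0 higher, where 6.33% of all genes tested passed in either direction. DESeq2 called 12 lower and edgeR 10, with 0 higher in either, where they called 0.498% and 0.251% of all genes lower. The median log2 fold change of the list was −2.22, beside 0.00 over all genes tested, of which 0.259% fell. The falls with the smallest p were those of nr2e3 (−1.52), sagb (−2.77), saga (−2.90) and pde6ga, listed as zgc:112320, an inhibitory subunit of rod phosphodiesterase (−2.56). With any WT library left out 0 fell, and the count was 6 without samd7-/- 1, 4 without samd7-/- 3 and 4 with robust moderation. Over all genes tested 31 fell in the main fit, and 4 with any WT library left out. That count was 19 without samd7-/- 1, 17 without samd7-/- 3 and 25 with robust moderation. The summed rod markers were 98445, 42519 and 95240 in samd7-/- eyes and 413145, 345235 and 305467 in WT eyes. Most of each sum was rho, so the sums largely repeat the rho counts given above.

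The disc membrane list held 20 symbols, of which 4 genes besides prph2a and prph2l were tested, prom1a, prom1b, cdhr1a and abca4a. Of these 4, 0 passed (limma; 0 at an unadjusted p under 0.05, 0 with DESeq2 and 0 with edgeR), where 0.301% of all genes tested passed in either direction, so a count of 0 in so short a list is near the background. prom1b, a prominin of the membrane folds from which discs form, averaged 7416 ± 194 in samd7-/- eyes and 7847 ± 1244 in WT eyes (SD, n = 3 each), a log2 fold change of −0.07 (limma adjusted p = 0.939). cdhr1a, a photoreceptor cadherin at the base of the outer segment, had a log2 fold change of 0.07 and abca4a, a retinoid flippase located at disc rims, one of −0.14 (limma adjusted p = 0.946 and 0.951; both named after their values were seen). Of 15 tested genes of outer segment transport and the cilium, from 27 symbols listed, 0 passed, also near the background, with a median of 0.00 (limma; 1 at an unadjusted p under 0.05, 0 with DESeq2 and 0 with edgeR). Of all genes tested 6.33% had an unadjusted p under 0.05 with limma. unc119b, which carries lipid-modified proteins such as transducin, had a log2 fold change of −0.09 (limma adjusted p = 0.897).

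The light-gated current of the outer segment was represented by 2 genes. The rod channel gene cnga1a, listed as si:dkey-22i16.2, fell to 72.3 ± 34.3 in samd7-/- eyes, against 438 ± 45.0 in WT eyes (SD, n = 3 each), a log2 fold change of −2.72 (SE 0.38, limma adjusted p = 0.0332). That call was lost without WT 1, WT 2, WT 3 or samd7-/- 3. In mammalian rods the channel complex in the plasma membrane binds the disc rim proteins. slc24a2, an exchanger of cones, had a log2 fold change of 0.32 (limma adjusted p = 0.779). Both genes also stand in another list, cnga1a among the rod genes that fell and slc24a2 among those of shared cone phototransduction.

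Of the 39 other tetraspanin symbols listed 31 were tested. Of these, 0 passed with limma, a count near the background of 0.301%, and 0 with DESeq2 and 0 with edgeR. At an unadjusted p under 0.05 limma had 3, 1 higher and 2 lower, where 6.33% of all genes tested passed. The median log2 fold change of the list was −0.02. cd81a, a tetraspanin of many cell types, averaged 11705 ± 1575 in samd7-/- eyes and 10158 ± 1318 in WT eyes (SD, n = 3 each), a log2 fold change of 0.20 (limma adjusted p = 0.837).

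Of 23 tested genes on the list of shared cone phototransduction 2 fell, 0 rose and 21 did not pass, with a median of 0.10. Of all genes tested 0.259% fell and 0.0418% rose. The list was drawn up by name, and whether its genes are expressed in cones alone was not tested. At an unadjusted p under 0.05 limma had 3 of them higher and 6 lower, where 6.33% of all genes tested passed in either direction. With DESeq2 or edgeR 0 rose. Those that fell were guca1a, a guanylate cyclase activator, and rgs9b, which speeds the shutdown of transducin (log2 fold changes −1.45 and −1.59, limma adjusted p = 0.0102 and 0.0332). With DESeq2 6 fell and with edgeR 2, where they called 0.498% and 0.251% of all genes lower. With any WT library left out 0 fell, and 1 was left without samd7-/- 1 or without samd7-/- 2. Over all genes 4 fell with any WT library left out, 19 without samd7-/- 1 and 23 without samd7-/- 2. Of 19 photoreceptor transcription factors, nr2e3, already counted among the rod genes, fell. tbx2a, a T-box factor of ultraviolet cones, rose (log2 fold change 0.83, limma adjusted p = 0.0332), and 17 did not pass, against the same shares of all genes. At an unadjusted p under 0.05 limma had 5 of the 19 higher and 1 lower, against the same 6.33% of all genes. DESeq2 called 2 higher and 1 lower, where it called 0.181% of all genes higher and 0.498% lower. With edgeR 0 were higher and 1 lower, where it called 0.0335% of all genes higher and 0.251% lower. The tbx2a rise was thus not called with edgeR. tbx2a missed the threshold whichever of the 6 libraries was omitted (limma adjusted p = 0.0741 to 0.183).

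**Figure D5:**
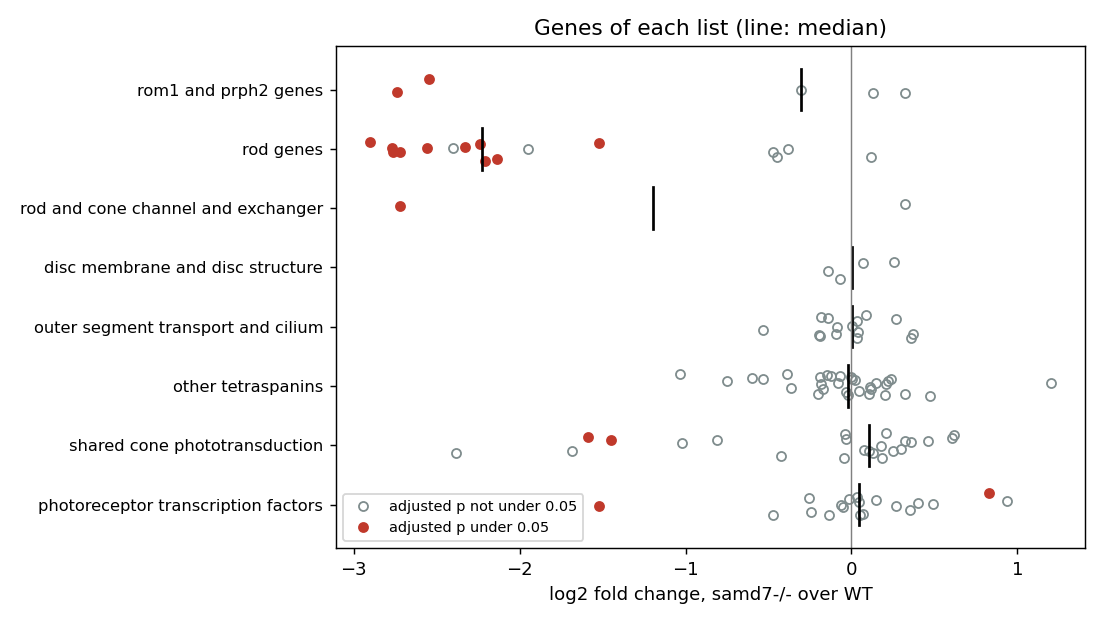
Log2 fold changes (samd7-/- over WT) of the rom1 and prph2 genes and of the tested genes of each list, 1 point per gene, filled where the limma adjusted p is under 0.05, with the median as a line. rom1a and rom1b lie within the range of the rod list, whose median is −2.22, while the disc membrane, transport and tetraspanin lists centre on 0.

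Of the 10 cone markers tested 1 rose and 2 fell, where 0.0418% of all genes tested rose and 0.259% fell. The green cone opsin opn1mw1 and arr3a fell (log2 fold changes −17.4 and −6.88, limma adjusted p = 3.41e-07 and 5.85e-07). opn1mw1 had 0, 1.01 and 1.96 normalized counts in samd7-/- eyes, against 401000, 324035 and 221550 in WT eyes. The size of its fold change therefore depends on the added 1. arr3b rose (log2 fold change 1.44, limma adjusted p = 0.0147). These cone markers were named after their values were seen. The cone opsin opn1sw1, chosen as a comparison gene, had a log2 fold change of 0.68 and did not pass (limma adjusted p = 0.747). Its mutant values lay wholly above its WT values, as for 6.66% of genes tested. The median log2 fold change of the cone markers was 0.16. The lens markers, 47 tested, had a median log2 fold change of −0.57, and their summed share of counts overlapped between the genotypes. The markers of the pigment epithelium, blood, microglia, muscle, skin and cornea, Muller glia, and the ganglion, amacrine, horizontal and bipolar cells held no gene that passed with limma. From 3 to 11 genes were tested for each of these. Over all genes tested 0.301% passed in either direction, so a count of 0 in such short lists is near the background. The summed horizontal and amacrine cell markers were higher in every samd7-/- larva than in every WT larva. For amacrine cells the sums were 38283 to 39737 in samd7-/- eyes and 32560 to 34851 in WT eyes. Among single genes 6.66% lay wholly higher, but the share for sums of several markers was not measured. Of the 4 pineal markers tested 1 rose and 1 fell, where 0.0418% of all genes tested rose and 0.259% fell. These were exorh, which rose, and aanat2, which fell (log2 fold changes 3.19 and −1.98, limma adjusted p = 0.0155 and 0.00332). Both were named after their values were seen. The sum of the pineal markers overlapped between the genotypes. The libraries were made from eyes, and which cells gave these transcripts was not tested. The part of any of these cells in the rom1 values was not tested.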

How the data were processed

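RNA was measured in eyes of 3 samd7-/- and 3 WT larvae with the SMARTer Ultra Low kit from 10 ng of total RNA (12 cycles of cDNA and 12 of library amplification, 150 bp pairs), per the labels' protocols; the kit does not mark strand. Tools named in the submitters' processing notes, per the labels, were HTSeq 0.9.1, STAR 2.7.2b, Trim Galore 0.6.1, R 4.1.3 and DESeq2 1.34.0, and the build was danRer10; no annotation is named there. The values the authors deposited are a normalized signal, that is, reads per gene over a size factor of the library: 100% of values in each library were whole multiples, within 0.001, of the value of 1 read. For samd7-/- 2 that value, 1.01, is too near 1 for an independent check of the recovery. Their deposited log2 fold change and adjusted p-value (DESeq2's names, per the file headers) served only as an alternative.

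limma 3.58.1 in R 4.3.3 (limma-trend, two-sided) was run on log2(value + 1) of the 11959 genes that reached 10 in at least 3 libraries, with no covariate, Benjamini-Hochberg adjustment over all of them and a threshold of 0.05. The added 1 shrinks fold changes of low genes. Ratios and shares within libraries were compared with exact permutation tests. In simulated data with 200 changed genes among 11907 (2.5 log2 units either way), 100% were recovered with 4 false calls. Every simulated gene had the same dispersion (its variation beyond read sampling), and only genes with a mean of at least 50 were changed. The recovery therefore does not measure power or false calls at the spread of these larvae. DESeq2 1.42.0 and edgeR 4.0.16 were alternatives on the recovered reads. No pair of libraries of a genotype agreed within sampling noise (chi-square per degree of freedom 42.9 or more).

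The members, lists and tests were chosen with earlier results of these data known. Named genes were the members, the genes they were set against, from each list the called genes lowest in p, at most 4 (without a call, its gene of highest mean count), and the 4 genes of closest profile with a mean of at least 50, clone names left out; others are said to have been named later. prph2a, prph2l and 8 of the 15 ratios were added after the files were read. Of list symbols, 13 were found through a RefSeq synonym. Transcript lengths were not used here, so counts of different genes are not compared as levels; the highest mean count served only to choose genes to name.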

Additional observations from a re-analysis of the deposited data

How the results depend on the processing

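rom1a and rom1b kept their direction in every alternative run and their calls in all but 3, the fits without 1 WT library; with 1 library left out the log2 fold changes were −2.76 to −2.21 and −2.95 to −2.35. For prph2b they were −0.020 (without WT 2) to 0.32. Genes past the threshold numbered 36, 6 to 27 with 1 library left out, and 90 with DESeq2 and with the authors' deposited table (24 higher, 66 lower); those of the fixed lists numbered 13, 0 to 11 with 1 library left out, 7 with robust moderation, and 20 with DESeq2 and with the authors' deposited table. The prph2b to gnat2 log2 ratio was −0.26 to 0.14 with 1 library left out, and the prph2a to prph2b ratio −0.051 (without WT 3) to 0.38; the cause was not tested. With the replicate number as a block 33 genes were called, rom1a and rom1b at limma adjusted p = 0.00832 and 0.00483. Deviations from the genotype means correlated at 0.029, 0.18 and −0.0024 between same-numbered larvae. Between larvae of different number they correlated at −0.16 to 0.14. These values do not decide whether same-numbered larvae form pairs. The length scaling could not be run. Depth limited none of the 5 genes; 3 larvae per genotype limit the p of ratios to 0.1.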
